A study of Homo sapiens with 24 samples.

Results

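The 10 genes described here encode subunits or cofactors of the Polycomb repressive complexes: EZH1, EZH2, EED, SUZ12, RBBP7 and JARID2 of Polycomb repressive complex 2 (PRC2), and BMI1, RNF2, CBX2 and CBX8 of complex 1 (PRC1). They were taken by symbol from tables of 25680 genes, and all 10 were found and passed the filter on low values in every table. RNA was sequenced from 3 established human acute myeloid leukaemia cell lines in 24 libraries, 8 groups of 3. MV411 carries a fusion of the histone methyltransferase gene MLL and an activated FLT3 receptor kinase gene (FLT3-ITD). It was given DMSO, MI-503 at 2.5 µM over 3 days, AC220 at 3 nM over 24 hours, or both. MOLM13, which also carries both lesions, and OCI-AML3, which carries mutant NPM1 and no MLL fusion, were given DMSO or 2.5 µM MI-503 for 4 days. MI-503 blocks the binding of menin to MLL proteins, and AC220 (quizartinib) inhibits the FLT3 kinase. Each line stands for 1 leukaemia grown in liquid culture. The triplicates are described as biological, but how the cultures were separated is not, so p-values measure the spread between these libraries. The treatment time of DMSO in MV411 is not given.

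PRC2 trimethylates lysine 27 of histone H3 through EZH2 or its homologue EZH1, each of which needs EED and SUZ12 to be active. PRC1 ubiquitinates histone H2A through RING1 or RNF2 paired with a PCGF protein such as BMI1, and its CBX proteins bind the PRC2 mark. Both complexes keep developmental genes silent and act against MLL and other Trithorax proteins. In leukaemias with MLL fusions PRC2 and BMI1 are known as supports of growth, and EZH2 is known to be high in dividing cells and EZH1 in resting ones.

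All 10 members lie on nuclear chromosomes of GRCh38, in GENCODE annotation. The PRC2 genes are EZH2 at chr7:148807383-148884321 (minus strand), EZH1 at chr17:42700275-42745049 (minus), SUZ12 at chr17:31937018-32001045 (plus), EED at chr11:86244544-86278813 (plus), RBBP7 at chrX:16839283-16870414 (minus) and JARID2 at chr6:15246296-15522040 (plus). The PRC1 genes are RNF2 at chr1:185045364-185102608 (plus), BMI1 at chr10:22321211-22331484 (plus), CBX2 at chr17:79778132-79787983 (plus) and CBX8 at chr17:79792132-79801683 (minus). CBX2 and CBX8 are neighbours, 4.15 kb apart.

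RefSeq promoters on GRCh38.p14 were matched for 8 members in 12 windows, each running from 250 bases before to 30 bases after a transcript start. The windows of EZH2, EZH1 and SUZ12 are shown because these 3 PRC2 genes did not move alike. They are chr7:148884262-148884541 (minus strand), chr17:42745011-42745290 (minus strand) and chr17:31936757-31937036 (plus strand), written 5′ to 3′ in the direction of the gene. Capitals mark a match to 1 of 4 words of 7 bases known for E2F factors, searched on both strands: TTCCCGC, then TTCGCGC, then TTGCCGC and then TTGGCGC. No other motif is in capitals.
EZH2: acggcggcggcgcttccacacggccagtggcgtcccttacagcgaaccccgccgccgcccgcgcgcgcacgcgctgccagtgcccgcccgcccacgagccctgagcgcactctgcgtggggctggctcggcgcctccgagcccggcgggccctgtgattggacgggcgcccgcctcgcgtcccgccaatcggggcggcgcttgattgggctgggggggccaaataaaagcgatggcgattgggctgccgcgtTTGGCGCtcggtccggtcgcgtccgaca
EZH1: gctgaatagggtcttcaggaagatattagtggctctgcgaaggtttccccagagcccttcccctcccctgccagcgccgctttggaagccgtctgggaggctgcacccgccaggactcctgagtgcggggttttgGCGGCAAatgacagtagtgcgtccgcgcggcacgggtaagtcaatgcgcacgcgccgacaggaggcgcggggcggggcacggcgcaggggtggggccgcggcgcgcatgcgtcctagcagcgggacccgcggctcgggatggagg
SUZ12: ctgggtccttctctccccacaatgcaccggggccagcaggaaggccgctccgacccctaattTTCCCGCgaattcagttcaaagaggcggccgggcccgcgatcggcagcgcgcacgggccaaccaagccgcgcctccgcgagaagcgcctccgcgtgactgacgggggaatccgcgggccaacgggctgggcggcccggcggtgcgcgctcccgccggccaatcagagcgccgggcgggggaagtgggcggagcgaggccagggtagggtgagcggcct
Counting the transcript start as 1, the matches began at position 3 in EZH2, -115 in EZH1 and -188 in SUZ12. RNF2 had a match at -111 and RBBP7 at -93 in the second of its windows, and the windows of EED, JARID2 and BMI1 held none. A match was thus in 5 of the 12 member windows, beside 12.2% of 35116 RefSeq promoter windows of the same length. The word CCAAT, counted on both strands and present in 33.6% of all windows, was in windows of EZH2, EED, SUZ12, RBBP7 and JARID2. The EZH2 window shown held 4 copies, and the other member windows with a match held 1 each. A match describes the sequence only.

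Reads assigned to genes numbered 23168887 to 26596469 per library in MV411, 23281330 to 27240357 in MOLM13 and 44364964 to 72994481 in OCI-AML3. All 7 myeloid markers examined (CD33, SPI1, CEBPA, MPO, PTPRC, CSF3R and LYZ) averaged at least 1 RPM (reads scaled to the library total) in each group. The B cell marker MS4A1 was listed at 0 in MV411 and MOLM13, although PAX5 led a summed B cell marker level of 53.0 to 54.5 RPM in MOLM13 with DMSO. All 3 tables are labelled as normalised to ERCC spike-in RNA. The MV411 values nevertheless matched scaling to the median gene. The MOLM13 and OCI-AML3 values did not, and on their deposited scale the median gene moved by -0.54 and -0.16 on the log2 scale with MI-503. Whether that scale follows RNA per cell was not tested, since no spike-in values were used here. Values in MOLM13 and OCI-AML3 are given relative to the median gene, with the deposited scale beside them. Those in MV411 are also relative to the median gene, and no other deposited scale is at hand for that line. A change in bulk RNA cannot be assigned to fewer expressing cells or less RNA per cell, which cannot be told apart here.

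In MV411 the PRC2 methyltransferases moved in opposite directions. EZH2 fell with each drug and to 28.4% of the DMSO level with both, EZH1 rose with each drug and to 2.23-fold with both, and the other core PRC2 genes EED, SUZ12 and RBBP7 fell with AC220 and with both drugs. JARID2 rose in all 3 treatments, and all changes in MV411 are relative to the median gene. Among the PRC1 genes, CBX2 fell with AC220 to 26.7% of DMSO whereas its neighbour CBX8 rose. The 3 comparisons use the same 3 DMSO libraries, and all 12 MV411 libraries entered 1 limma fit over 14421 genes. Genes were called at a p below 0.05 after Benjamini-Hochberg adjustment over all of them. With MI-503, 2 of the 10 members rose (29.8% of all tested genes rose) and 4 fell (30.8% of genes). With AC220, 4 rose (37.7% of genes) and 5 fell (37.3%). With both drugs, 3 rose (39.3%) and 6 fell (40.1%). The members' median log2 changes were -0.14, -0.26 and -0.44, where the medians of all genes were -0.01, 0.01 and 0.00307. The background is high, with 60.6%, 74.9% and 79.4% of all genes called in either direction, and the 6 of 10 members called with MI-503 are near it. The 3 libraries of a treatment lay wholly apart from DMSO for 7, 9 and 9 members, beside 66.6%, 77.8% and 79.3% of genes.

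**Figure D1:**
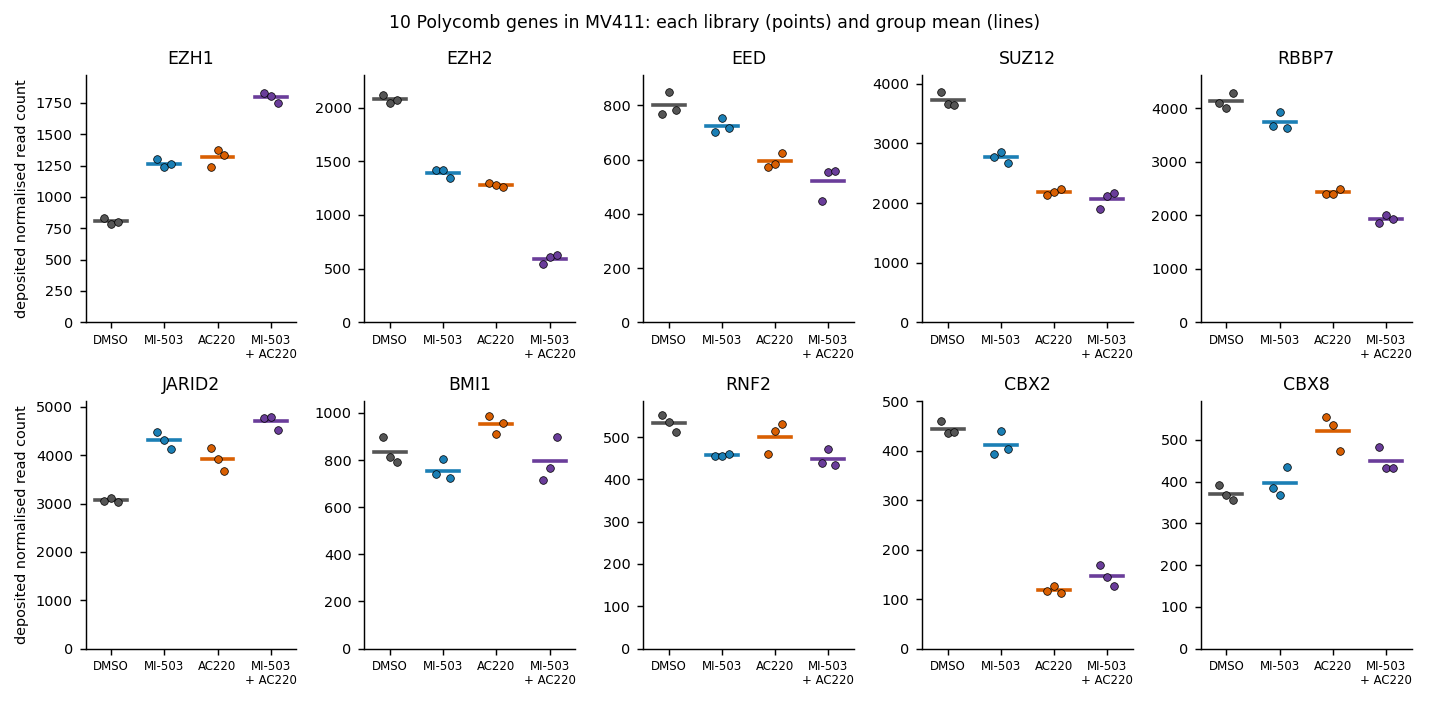
Deposited normalised read counts (vertical axes, from 0) of the 10 Polycomb genes in MV411 with DMSO, MI-503, AC220 or both drugs. Points are the 3 libraries of each group and lines their means. EZH2 steps down and EZH1 steps up across the groups, and CBX2 is low in the 6 libraries that received AC220.

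EZH2, the main methyltransferase of PRC2, measured 2118, 2044 and 2070 normalised reads in the 3 DMSO libraries of MV411. The MI-503 libraries gave 1419, 1420.5 and 1342, the AC220 libraries 1293, 1277 and 1261, and the combination 539, 609 and 623. The 4 groups did not overlap, and the combination stood far below either drug alone. The log2 changes from DMSO were -0.58 ± 0.05 (SE) with MI-503, -0.70 ± 0.05 with AC220 and -1.82 ± 0.05 with both, with limma adjusted p of 3.52e-09, 4.20e-11 and 4.58e-19. The step from MI-503 to AC220 was small, -0.13 ± 0.05 (limma adjusted p = 0.0469), and it lost its call when any 1 of 5 of the 6 libraries was left out (adjusted p 0.0669 to 0.130). These were MI-503 libraries 1 and 2 and all 3 AC220 libraries. Adding AC220 to MI-503 lowered EZH2 by a further -1.24 ± 0.05, and adding MI-503 to AC220 by -1.11 ± 0.05.

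EZH1, the methyltransferase with weaker activity that is typical of resting cells, measured 835, 788 and 796 normalised reads with DMSO. With MI-503 it gave 1300.2, 1235 and 1262, the AC220 libraries 1243, 1371 and 1338, and the combination 1830.4, 1807 and 1751. The DMSO libraries were lowest and the combination libraries highest, and the single drugs overlapped. The log2 changes were 0.65 ± 0.05, 0.71 ± 0.05 and 1.15 ± 0.05, with limma adjusted p of 1.41e-10, 1.08e-11 and 6.09e-16. AC220 and MI-503 differed by 0.06 (95% interval -0.05 to 0.16).

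Within a library the ratio of EZH2 to EZH1, in reads per kilobase of exons, needs no scaling between libraries. In MV411 it was 3.85 to 3.94 with DMSO, 1.61 to 1.74 with MI-503, 1.41 to 1.58 with AC220 and 0.446 to 0.539 with both drugs. The mean fell 7.83-fold from DMSO to the combination, where EZH1 became the more abundant message. In MOLM13 the ratio was 6.60 ± 0.18 (SD, n = 3) with DMSO and 4.28 ± 0.21 with MI-503. In OCI-AML3 it was 1.88 to 1.95 and 1.30 to 1.43. The DMSO libraries did not overlap the treated libraries in any line. With 3 libraries against 3, an exact two-sided permutation test cannot give a p below 0.1.

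**Figure D2:**
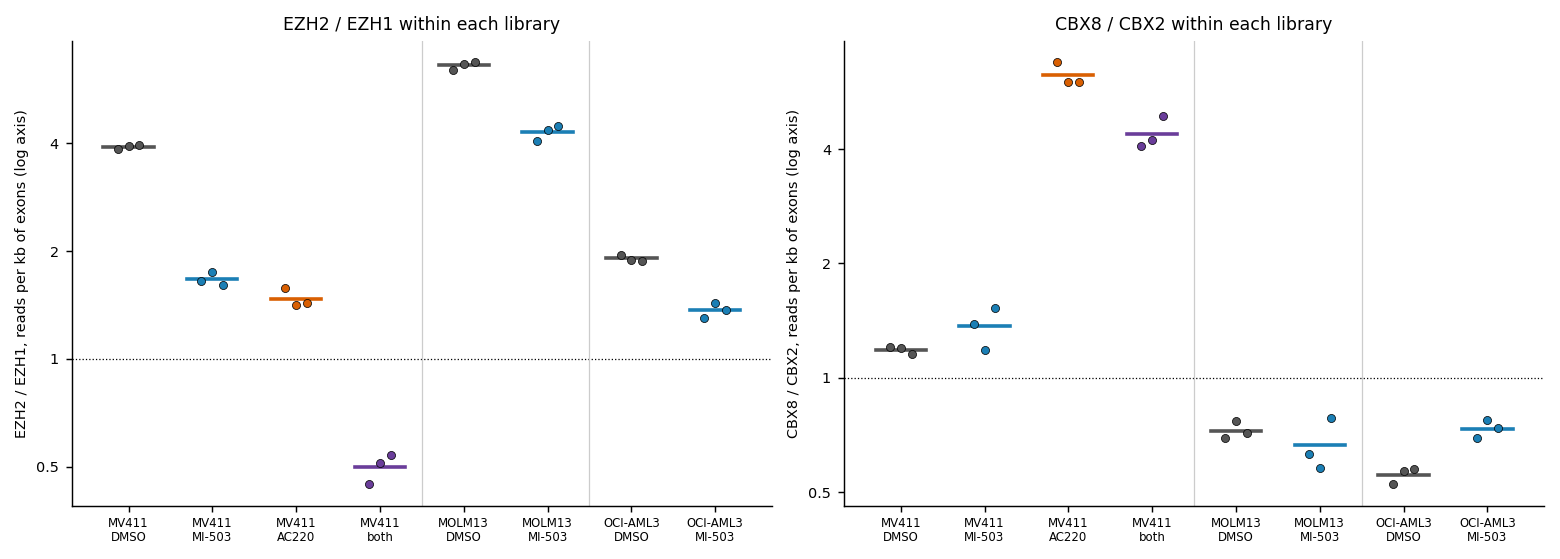
Ratio of EZH2 to EZH1 (left) and of CBX8 to CBX2 (right) in reads per kilobase of exons, on log axes, in each library of the 8 groups, with lines at group means. The EZH2 to EZH1 ratio is lower with drug in every line and is below 1 in MV411 with both drugs. The CBX8 to CBX2 ratio is high in MV411 groups with AC220.

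SUZ12, which holds PRC2 together and on nucleosomes, measured 3859.8, 3665 and 3642 normalised reads in MV411 with DMSO. MI-503 libraries measured 2769, 2863 and 2669.7, the AC220 libraries 2138, 2184 and 2228, and the combination 1894, 2124 and 2165. The AC220 and combination libraries overlapped and lay below the others. The log2 changes were -0.43 ± 0.05, -0.77 ± 0.05 and -0.85 ± 0.05, with limma adjusted p of 9.03e-08, 1.23e-12 and 1.09e-13. The combination differed from AC220 by -0.09 (95% interval -0.19 to 0.02), which passed the threshold without combination library 3 (-0.12, limma adjusted p = 0.0499).

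EED, which binds trimethylated lysine 27 and stimulates the enzyme, measured 769.9, 850.1 and 783 normalised reads with DMSO. Under MI-503 the values were 703, 752 and 718, the AC220 libraries 574, 583 and 625, and the combination 445, 555 and 559. The groups did not overlap, stepping down in that order, and combination library 1 was the lowest of all. The change with MI-503, -0.14 ± 0.08, did not pass (limma adjusted p = 0.105; 0.0309 when only the DMSO and MI-503 libraries were fitted), and those with AC220, -0.43 ± 0.08, and both drugs, -0.63 ± 0.08, did (limma adjusted p = 2.00e-05 and 6.35e-08). The further step from AC220 to the combination was -0.20 ± 0.08 (limma adjusted p = 0.0302). It was lost without combination library 1 (-0.09, limma adjusted p = 0.260) or AC220 library 3 (-0.16, 0.118).

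RBBP7, a histone-binding subunit that PRC2 shares with other chromatin complexes, measured 4095, 4001 and 4286 normalised reads with DMSO. Values with MI-503 were 3659, 3922 and 3629, the AC220 libraries 2405, 2393 and 2498, and the combination 1859, 2000.1 and 1937. All 4 groups were apart. The log2 changes were -0.14 ± 0.05, -0.76 ± 0.05 and -1.09 ± 0.05, with limma adjusted p of 0.00887, 2.61e-13 and 1.63e-16, and that of MI-503 was lost without DMSO library 3 (-0.12, adjusted p = 0.0548). Relative to its homologue RBBP4, which can take the same place in the complex, RBBP7 stood at 1.37 to 1.44 per kilobase with DMSO, 1.36 to 1.40 with MI-503, 0.971 to 0.995 with AC220 and 0.954 to 1.06 with both. TXLNG overlaps RBBP7 on the opposite strand, and whether counting used strand is not given.

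JARID2, a cofactor that brings PRC2 to its targets, measured 3062, 3123 and 3040.4 normalised reads with DMSO. MI-503 gave 4482, 4326 and 4124, the AC220 libraries 4149, 3924 and 3668, and the combination 4775, 4796 and 4534. Every treated library was above every DMSO library. The log2 changes were 0.49 ± 0.05, 0.35 ± 0.05 and 0.61 ± 0.05, with limma adjusted p of 3.58e-09, 4.16e-07 and 1.61e-11. The antisense gene JARID2-AS1 lies within its span.

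RNF2, the ubiquitin ligase subunit, measured 552, 535 and 512 normalised reads in MV411 with DMSO. In the MI-503 libraries it was 455, 456 and 459.6, the AC220 libraries 459.7, 513 and 530.2, and the combination 438, 471 and 435. MI-503 and combination libraries lay below DMSO, and AC220 libraries overlapped it. The log2 changes with MI-503 and both drugs were -0.22 ± 0.07 and -0.25 ± 0.07 (limma adjusted p = 0.00795 and 0.00203), and that with AC220 was -0.09 (95% interval -0.23 to 0.05). RING1, the alternative ligase, was listed at 0 in all MV411 libraries and passed the filter in no line. How reads were assigned to genes is not given, so a value of 0 need not mean that its RNA was absent.

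BMI1, the PCGF partner that stimulates the ligase, measured 897, 811 and 790.4 normalised reads with DMSO. Counts with MI-503 were 741, 803 and 722, the AC220 libraries 987, 912 and 957, and the combination 715, 768 and 899. AC220 libraries were highest and the other groups overlapped. The change with AC220, 0.19 ± 0.07 (limma adjusted p = 0.0199), was lost without DMSO library 2 (0.18, adjusted p = 0.0615), DMSO library 3 (0.16, 0.0949) or AC220 library 1 (0.17, 0.0747). Those with MI-503, -0.14 ± 0.07, and both drugs, -0.07 ± 0.07, did not pass (limma adjusted p = 0.102 and 0.361). The first passed when only the DMSO and MI-503 libraries were fitted (0.0411), and the second without combination library 3 (-0.17, limma adjusted p = 0.0316). BMI1 shares its exons with the readthrough gene COMMD3-BMI1 on the same strand, which the tables list apart at 1585.7 ± 47.2 normalised reads (SD, n = 3) with DMSO, so the assignment of reads between them is uncertain.

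CBX2 and CBX8 are chromodomain readers of the PRC2 mark, and CBX2 is also known to compact chromatin. CBX2 measured 459.6, 436 and 439 normalised reads with DMSO. Its MI-503 libraries gave 393, 440.4 and 403, the AC220 libraries 116, 126 and 112, and the combination 168, 145 and 126. The 6 libraries with AC220 lay far below the other 6. Its log2 changes were -1.91 ± 0.10 with AC220 and -1.60 ± 0.10 with both (limma adjusted p = 1.51e-14 and 2.64e-13), and -0.11 with MI-503 (95% interval -0.31 to 0.09). CBX8 measured 391, 367 and 357 with DMSO, and its MI-503 libraries gave 385, 368 and 435, those with AC220 556, 536 and 473, and the combination 483, 432 and 434. Its AC220 libraries had the highest mean and overlapped the combination, and MI-503 libraries overlapped DMSO. Its log2 changes were 0.49 ± 0.08 with AC220 and 0.27 ± 0.08 with both (limma adjusted p = 8.62e-06 and 0.00357), and 0.09 with MI-503 (95% interval -0.08 to 0.26). Within libraries the CBX8 to CBX2 ratio per kilobase was 1.18 ± 0.03 (SD, n = 3) with DMSO, 1.37 ± 0.17 with MI-503, 6.27 ± 0.45 with AC220 and 4.39 ± 0.43 with both. The MI-503 libraries overlapped DMSO, and those with AC220 or both drugs did not.

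Of the reads per kilobase over the 6 PCGF genes in MV411, BMI1 held 22.2% ± 1.3 (SD, n = 3) with DMSO, 19.3% ± 0.6 with MI-503, 22.0% ± 0.8 with AC220 and 17.7% ± 1.7 with both. PCGF1 and PCGF3, which pair with the ligase in PRC1 forms that lack CBX proteins, held more than BMI1 in every MV411 group. In every line the shares leave out reads listed under COMMD3-BMI1. The order of BMI1 and the other PCGF genes therefore depends on that uncertain assignment.

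**Figure D3:**
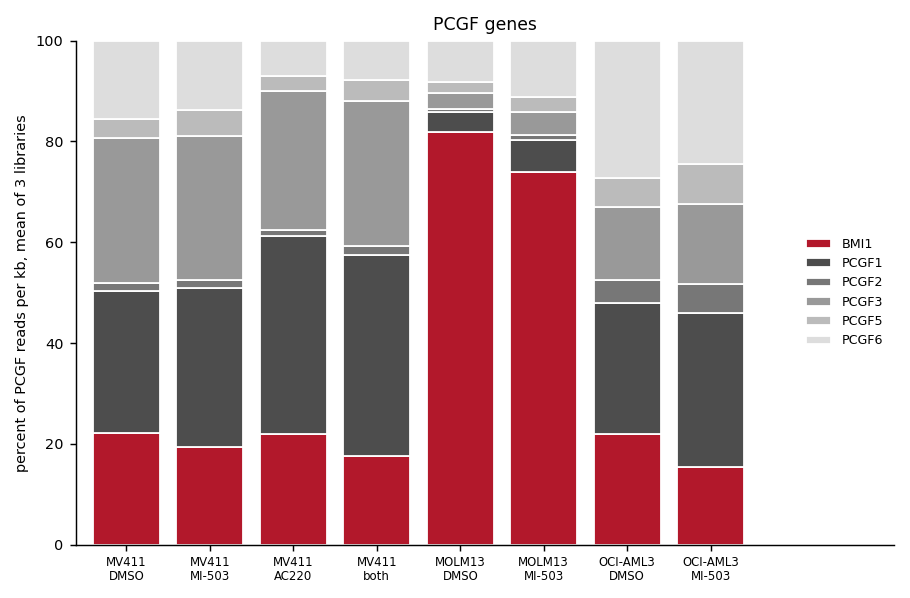
Mean share, in percent of reads per kilobase, of each PCGF gene in the 8 groups, 3 libraries each. BMI1 holds 81.9% of PCGF reads in MOLM13 with DMSO, against 22.2% in MV411 and 21.9% in OCI-AML3. Reads listed under COMMD3-BMI1 are left out.

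The interaction contrast asks whether the change with both drugs differs from the sum of the single log2 changes. It passed for 7 of 10 members (42.5% of all tested genes), 2 higher (20.9% of genes) and 5 lower (21.6%). EZH2 fell by more than the sum, -1.82 observed against -1.28 summed, a difference of -0.54 ± 0.08 (limma adjusted p = 5.31e-06). EZH1 rose by less, 1.15 against 1.36, as did JARID2, 0.61 against 0.83, and CBX8, 0.27 against 0.57. SUZ12 fell by less, -0.85 against -1.20, as did CBX2, -1.60 against -2.02, and RBBP7 fell by more, -1.09 against -0.91. The sums of EED, BMI1 and RNF2 were -0.57, 0.05 and -0.31, against -0.63, -0.07 and -0.25 observed, and did not pass.

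Several of these interaction calls were near the threshold and were lost when 1 library was left out. The EZH1 call was lost without DMSO 2 or 3, MI-503 1, AC220 2 or 3, or combination 3 (limma adjusted p 0.0534 to 0.0833), and the CBX8 call without DMSO 2 or 3, MI-503 3, AC220 1 or 2, or combination 2 or 3 (0.0606 to 0.119). The CBX8 call was also lost without the filter or the variance trend (limma adjusted p = 0.0522 and 0.0635). The RBBP7 call was lost without DMSO 2, MI-503 2 or AC220 3 (0.0547 to 0.0763), and the CBX2 call without MI-503 1 or combination 1 (0.0514 to 0.0565). Those of EZH2, SUZ12 and JARID2 passed whichever of the 12 libraries was left out.

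Between the combination and the single drugs the members' order changed further. Against MI-503, 3 of 10 members were higher (34.9% of genes) and 5 lower (33.6%), with 68.5% of genes called in all. Against AC220, 3 were higher (27.4%) and 5 lower (28.1%), with 55.5% of genes called. BMI1 was lower with both drugs than with AC220, -0.27 ± 0.07 (limma adjusted p = 0.00336), and JARID2 was higher, 0.27 ± 0.05 (limma adjusted p = 3.56e-05). CBX2 was higher than with AC220, 0.30 ± 0.10 (limma adjusted p = 0.0114), but not without combination library 1 (0.20, adjusted p = 0.0903). CBX8 was lower than with AC220, -0.21 ± 0.08 (limma adjusted p = 0.0285). That call was lost without AC220 library 1 or 2 or combination library 2 or 3 (0.0781 to 0.131). Its rise over MI-503, 0.18 ± 0.08 (limma adjusted p = 0.0460), was lost without MI-503 library 1 or 2 or combination library 1 (0.121 to 0.195). That rise also did not pass with edgeR or DESeq2 (adjusted p = 0.0563 and 0.0726). In limma it was lost with equal library totals, without the filter or the variance trend, and when only the compared groups were fitted. The rise of JARID2 over MI-503, 0.13 ± 0.05 (limma adjusted p = 0.0199), was lost without MI-503 library 3 or combination library 2 (0.117 and 0.0777). RNF2 differed from AC220 by -0.16 ± 0.07 (limma adjusted p = 0.0522), and passed without AC220 library 1 (-0.22, 0.0150) or combination library 2 (-0.20, 0.0395).

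AC220 acted for 24 hours and MI-503 for 3 days, so the single drugs differ in time as well as in target. Between them, 2 of 10 members were higher with AC220 (33.8% of genes) and 6 lower (34.5%), with 68.3% of genes called in all. RBBP7 and CBX2 differed most, by -0.62 ± 0.05 and -1.80 ± 0.10 (limma adjusted p = 2.23e-11 and 7.74e-14). JARID2 was lower with AC220 by -0.14 ± 0.05 (limma adjusted p = 0.0102), but not without MI-503 library 1 (-0.11, adjusted p = 0.0658) or AC220 library 3 (-0.09, 0.0949). RNF2 was 0.13 ± 0.07 higher (limma adjusted p = 0.0967), and passed without AC220 library 1 (0.19, 0.0263).

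Proliferation genes moved with the AC220 groups. All 20 on the list fell with AC220 (median log2 change -3.03) and with both drugs (-2.18), while with MI-503 13 fell and 2 rose (-0.19). Of all tested genes 37.3%, 40.1% and 30.8% fell in these comparisons, and 29.8% rose with MI-503. MKI67, a marker of cycling cells, changed by -3.21 ± 0.05 with AC220 and -1.83 ± 0.05 with both. MCM2, a replication licensing gene, changed by -2.89 ± 0.05 and -2.86 ± 0.05, and the transcription factor gene E2F1 by -3.58 ± 0.09 and -3.19 ± 0.09. EZH2 was lower with both drugs than with AC220 alone, and MKI67 was higher there (1.38 ± 0.05, limma adjusted p = 3.04e-16). Of the 20 genes on the list, 13 were higher there and 4 lower (median 0.58), beside 27.4% and 28.1% of all tested genes. The summed level of the 7 myeloid markers was 2186 to 2269.8 RPM with DMSO, 8054 to 8383 with MI-503, 3560.1 to 3749 with AC220 and 8776 to 8917 with both, with LYZ the highest. LYZ alone measured 1148 to 1243 RPM with DMSO and 6677 to 7084 with MI-503. PTPRC was lower with MI-503 (237 to 242 RPM) than with DMSO (274.5 to 294). The part of proliferation genes or myeloid markers in the members' changes was not tested.

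In MOLM13, MI-503 lowered BMI1, EZH2 and EED and raised JARID2 and EZH1 relative to the median gene, rises whose sign reversed on the deposited scale. Relative to the median gene 2 of 10 members rose (29.8% of 13393 tested genes) and 4 fell (30.1%; 59.9% of genes called in all), with a median of -0.08 beside -0.01 for all genes. On the deposited scale 9 fell (76.7% of genes) and 0 rose (6.74%; 83.4% called in all), with a median of -0.61. Relative to the median gene the treated libraries lay apart from DMSO for 6 members, beside 64.9% of genes. On the proliferation list 16 of 20 fell and 2 rose (median -0.21), and the summed myeloid markers went from 846 to 869 RPM with DMSO to 1509 to 1628 with MI-503; their part in the members' changes was not tested.

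EZH2 measured 2498, 2658 and 2546 rescaled reads in MOLM13 with DMSO against 1925, 2089.95 and 2050.3 with MI-503, without overlap. The change was -0.35 ± 0.04 (limma adjusted p = 6.36e-07), and -0.88 on the deposited scale. EZH1 measured 592, 604 and 572 with DMSO against 721, 729 and 697 with MI-503, also without overlap, a rise of 0.28 ± 0.05 (limma adjusted p = 0.000131) that turned to -0.25 ± 0.10 (0.0187) on the deposited scale. JARID2 measured 4629, 4494 and 4629 with DMSO against 6645, 6462 and 6329.95 with MI-503, a rise of 0.50 ± 0.03 (limma adjusted p = 1.55e-10), against -0.03 ± 0.09 on the deposited scale. The rise of JARID2 is therefore relative to the median gene, and on the deposited scale no difference was detected.

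BMI1 had the highest level per length of the 10 members in MOLM13, 186.6 ± 0.9 RPKM (reads per kilobase of exons, scaled to the library total) with DMSO (SD, n = 3) against 9.55 ± 0.73 in MV411 and 11.2 ± 0.3 in OCI-AML3. It measured 16115.5, 16193.5 and 16395.5 rescaled reads with DMSO against 10834, 10702 and 10938 with MI-503. The groups were far apart, and the change of -0.58 ± 0.02 (limma adjusted p = 2.14e-12) was -1.12 on the deposited scale. COMMD3-BMI1 changed by -0.58 ± 0.02 and COMMD3, the gene upstream, by -0.54 ± 0.03 (limma adjusted p = 1.82e-12 and 2.00e-10). The BMI1 share of PCGF reads per kilobase went from 81.9% ± 0.2 to 73.9% ± 0.4.

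EED measured 1279, 1219.6 and 1284 rescaled reads in MOLM13 with DMSO against 1023, 976 and 1034 with MI-503, without overlap. It fell by 0.32 ± 0.04 on the log2 scale (limma adjusted p = 5.41e-06). RBBP7 measured 4841, 4733 and 4925 with DMSO against 4655, 4407 and 4483 with MI-503, a change of -0.10 ± 0.03 (limma adjusted p = 0.00901). Its call was lost, by a narrow margin, without DMSO library 3 (-0.08). SUZ12 gave overlapping groups, 5357, 5352 and 5277 against 5210.1, 5196 and 5389, and a change of -0.02 (95% interval -0.07 to 0.04), but of -0.55 ± 0.09 on the deposited scale, where it was called lower.

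RNF2 changed by -0.06 in MOLM13 (95% interval -0.15 to 0.02), and passed without MI-503 library 1 (-0.09, limma adjusted p = 0.0410). CBX2 measured 635, 615 and 619.8 rescaled reads with DMSO against 672, 636 and 589.9 with MI-503, and CBX8 measured 312, 334 and 312 against 299, 259 and 326. Both overlapped, with changes of 0.02 (95% interval -0.10 to 0.14) and -0.12 (-0.30 to 0.06). On the deposited scale all 3 of these genes fell, and CBX2 so reversed its sign, at -0.51.

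In OCI-AML3, MI-503 lowered EZH2, BMI1, SUZ12 and RNF2 and raised CBX8 and CBX2 relative to the median gene. On that scale 2 of 10 members rose (32.8% of 15700 tested genes) and 4 fell (32.8%; 65.5% of genes called in all), with a median of -0.05 beside -0.00221 for all genes. On the deposited scale limma called 0 higher (3.85% of genes) and 0 lower (6.82%; 10.7% called in all), and the 6 called changes kept their sign. Relative to the median gene the treated libraries lay apart from DMSO for 8 members, beside 69.6% of genes. On the proliferation list 7 of 20 rose and 8 fell (median -0.07). The summed myeloid markers went from 2531 to 2568 RPM to 2293 to 2319, but single markers went both ways. PTPRC (1037 to 1078 RPM with DMSO, 589 to 634 with MI-503), SPI1, CEBPA and CSF3R were lower. LYZ (513 to 528 RPM with DMSO, 840 to 863 with MI-503) and CD33 were higher, and MPO overlapped. The part of either list in the members' changes was not tested.

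EZH2 measured 3150.1, 2980.45 and 3135.5 rescaled reads in OCI-AML3 with DMSO against 2178, 2094 and 2123 with MI-503. The groups were apart, with a change of -0.53 ± 0.04 (limma adjusted p = 6.67e-08) and of -0.69 ± 0.27 on the deposited scale, which did not pass. EZH1 measured 2453, 2389 and 2527 against 2534, 2212 and 2344, overlapping, a change of -0.06 (95% interval -0.16 to 0.05). It passed without MI-503 library 1 (-0.11, limma adjusted p = 0.0121). JARID2 rose relative to the median gene in MV411 and MOLM13, but not on the deposited scale of MOLM13. In OCI-AML3 it measured 10029, 10127 and 10185 against 9905, 9797 and 9866, a change of -0.04 (95% interval -0.09 to 0.02).

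SUZ12 measured 8211.5, 8203 and 8430.3 rescaled reads with DMSO against 7026, 6833 and 6509 with MI-503, a change of -0.29 ± 0.03 (limma adjusted p = 6.60e-06). RNF2 measured 2428, 2449 and 2462 against 2159.6, 1902 and 1960.2, a change of -0.29 ± 0.05 (limma adjusted p = 0.000125). BMI1 measured 2267, 2391 and 2347 against 1803, 1671 and 1636, a change of -0.46 ± 0.04 (limma adjusted p = 1.53e-06). Treated libraries of these 3 genes all lay below DMSO. COMMD3-BMI1 changed by -0.33 ± 0.04 (limma adjusted p = 1.14e-05), and COMMD3 by -0.04 (95% interval -0.14 to 0.05). The BMI1 share of PCGF reads per kilobase was 21.9% ± 0.7 (SD, n = 3) with DMSO and 15.5% ± 0.5 with MI-503.

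CBX8 measured 630.0, 668 and 660.1 rescaled reads in OCI-AML3 with DMSO against 959, 1065 and 1052 with MI-503, and CBX2 measured 1704, 1671 and 1622 against 1962, 1950.4 and 2023. Treated libraries of both lay above DMSO. The changes were 0.65 ± 0.05 and 0.25 ± 0.04 (limma adjusted p = 4.61e-07 and 7.69e-05), and 0.49 and 0.09 on the deposited scale. EED and RBBP7 changed by 0.01 (95% interval -0.10 to 0.12) and 0.03 (-0.02 to 0.09).

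**Figure D4:**
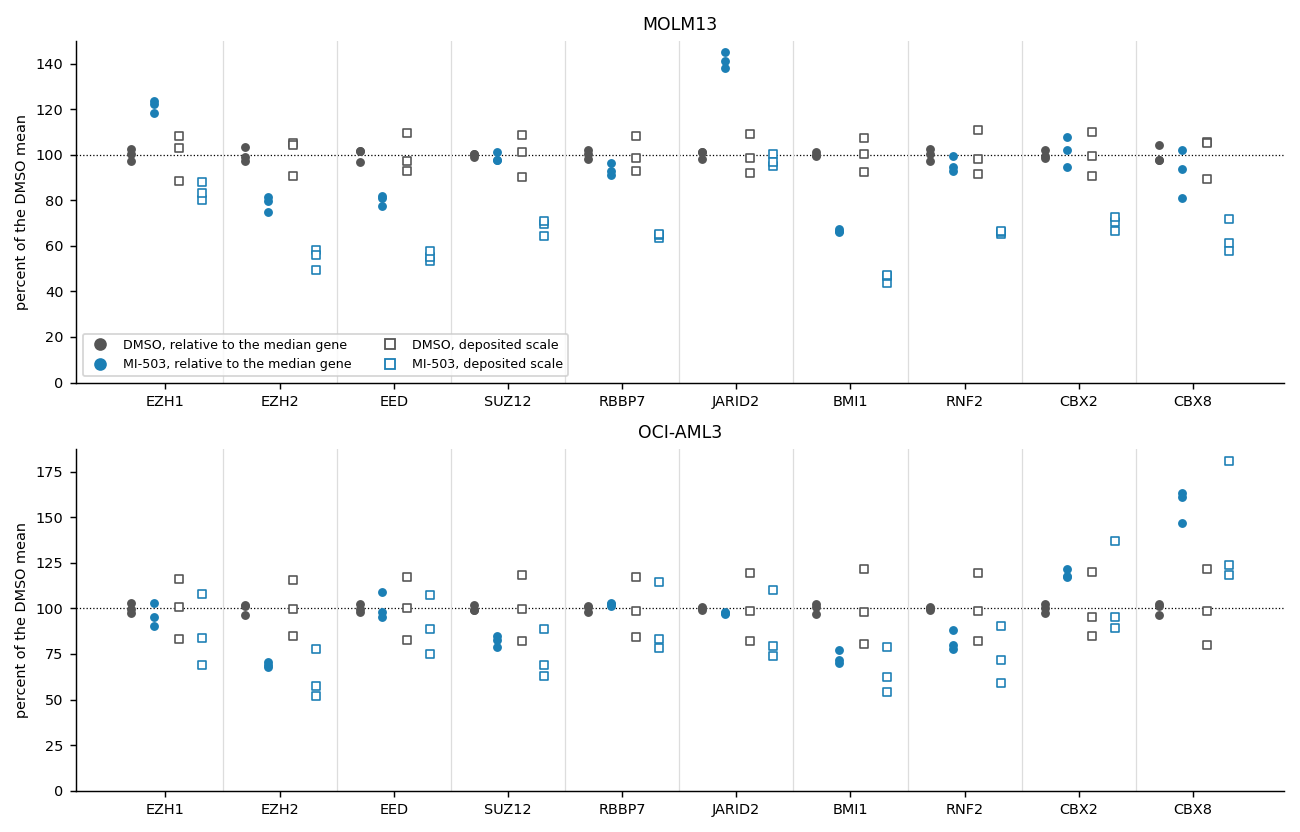
The 10 genes in MOLM13 (top) and OCI-AML3 (bottom), as percent of the DMSO mean of the same scale, for each library with DMSO (grey) and MI-503 (blue). Filled circles are relative to the median gene and open squares are on the deposited scale, where libraries of OCI-AML3 spread widely. In MOLM13 the MI-503 means of EZH1, JARID2 and CBX2 are below the DMSO mean on the deposited scale rather than above it. The libraries of JARID2 overlap DMSO on the deposited scale, and those of CBX2 relative to the median gene.

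The MI-503 effects of the lines were compared in 1 limma fit of all 24 libraries over 12634 genes, relative to the median gene, with 3 days of treatment in MV411 and 4 days in the other lines. MV411 and MOLM13 differed for 4 of 10 members (56.6% of genes), 2 with a higher effect in MV411 (26.7%) and 2 with a lower (30.0%). With deposited values, 6 were higher (55.8%) and 0 lower (5.67%; 61.5% called in all). In MV411 the deposited values are themselves relative to the median gene, unlike those of the other lines. Deposited differences with MV411 therefore carry the other line's shift, and for MOLM13 the median of all genes was 0.52. MV411 and OCI-AML3 differed for 7 (61.4%), 3 higher in MV411 (30.5%) and 4 lower (30.8%). Deposited values gave 3 higher (21.4%) and 0 lower (8.90%; 30.3% in all). MOLM13 and OCI-AML3 differed for 8 (58.0%), 5 higher in MOLM13 (30.7%) and 3 lower (27.3%). With the values as deposited, 0 were higher (6.88%) and 5 lower (37.7%; 44.6% in all). The EZH1 effect was higher in MV411 than in MOLM13 by 0.37 ± 0.07 and than in OCI-AML3 by 0.71 ± 0.07 (limma adjusted p = 4.07e-05 and 8.00e-10). With that shift included, the first difference was 0.90 on the deposited scale. The JARID2 effect was higher in MV411 than in OCI-AML3 by 0.52 ± 0.05 (limma adjusted p = 1.92e-09), and by 0.68 on the deposited scale. It differed between MV411 and MOLM13 by -0.01 (95% interval -0.12 to 0.10), but by 0.52 on the deposited scale.

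The EZH2 effect differed between MV411 and MOLM13 by -0.23 ± 0.07 relative to the median gene (limma adjusted p = 0.00390), but was 0.30 ± 0.19 higher on the deposited scale. MV411 and OCI-AML3 differed for EZH2 by -0.04 (95% interval -0.18 to 0.09). The SUZ12 effect differed between MV411 and MOLM13 by -0.41 ± 0.06 (limma adjusted p = 9.41e-07), against 0.12 ± 0.19 on the deposited scale. The BMI1 effect was higher in MV411 than in MOLM13 by 0.44 ± 0.08 and than in OCI-AML3 by 0.32 ± 0.08 (limma adjusted p = 6.08e-05 and 0.00205), and on the deposited scale by 0.98 and 0.47. The CBX8 effect was lower in MV411 and MOLM13 than in OCI-AML3, by -0.56 ± 0.11 and -0.77 ± 0.11 (limma adjusted p = 0.000115 and 1.67e-06). Deposited values gave -0.40, which did not pass, and -1.14, which did.

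**Figure D5:**
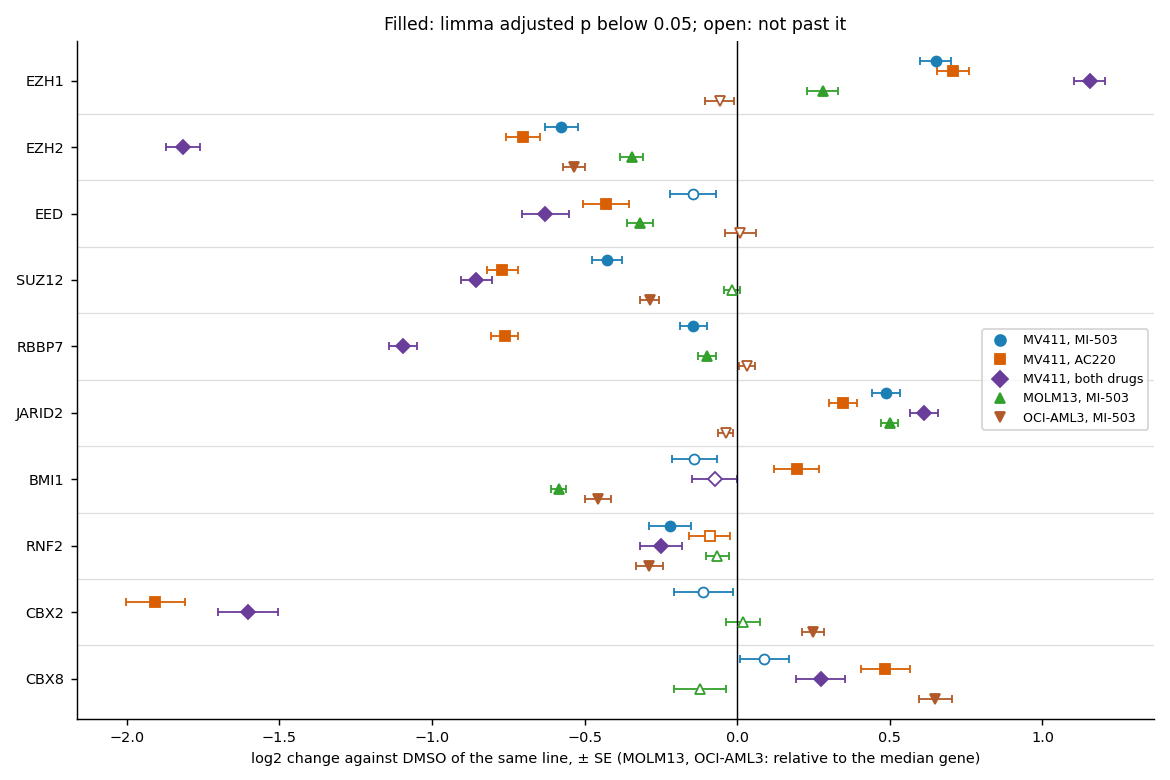
Log2 change against DMSO, ± SE of the limma fit, of the 10 genes in the 5 comparisons of a drug with DMSO, with filled markers where adjusted p was below 0.05. EZH2 lies left of 0 in all 5 on either scale, and JARID2 lies right of 0 in MV411 and MOLM13. In MOLM13 EZH1, JARID2 and CBX2 are left of 0 on the deposited scale.

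Of 9 other PRC2 genes, 8 were tested. With AC220, 0 rose and 6 fell (median -0.49), with both drugs 1 rose and 6 fell (-0.62), and with MI-503 1 rose and 6 fell (-0.25). Of all tested genes 37.7%, 39.3% and 29.8% rose and 37.3%, 40.1% and 30.8% fell in these comparisons. C17orf96, the older symbol of the PRC2 cofactor EPOP, measured 168, 149.6 and 176 normalised reads with DMSO in MV411 and 35.5, 38.8 and 40.4 with AC220. It fell to 23.7% of its DMSO level, a change of -2.08 ± 0.13, and by -1.71 ± 0.13 with both drugs. LCORL, which encodes another PRC2 cofactor, changed by -0.95 ± 0.08 with AC220 and -1.11 ± 0.08 with both, and LCOR by -0.47 ± 0.09 with MI-503 in MV411 and -0.47 ± 0.04 in OCI-AML3. All passed limma's threshold.

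Of 24 other PRC1 genes, 22 were tested in MV411. With MI-503 8 rose and 4 fell (median 0.07), with AC220 10 rose and 9 fell (-0.06), and with both drugs 12 rose and 7 fell (0.19). The shares of all tested genes in the same order were 29.8%, 37.7% and 39.3% that rose and 30.8%, 37.3% and 40.1% that fell. Among those past limma's threshold, the Scm-family gene SCML1 changed by -0.85 ± 0.10 with MI-503 and -1.77 ± 0.10 with AC220 in MV411, and was listed at 0 in MOLM13. The BMI1 homologue PCGF6 changed by -0.92 ± 0.09 with AC220 and PCGF5 by 0.47 ± 0.08 with MI-503, where MGA, a partner of PCGF6, changed by 0.41 ± 0.04. With both drugs the corepressor gene BCORL1 rose by 1.27 ± 0.08 and the reader gene CBX7 by 1.20 ± 0.12.

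In MOLM13 with MI-503, 5 of 21 tested PRC1 genes rose and 6 fell, and 0 of 8 PRC2 genes rose and 2 fell, relative to the median gene. Beside them 29.8% of all tested genes rose and 30.1% fell. CBX6 rose by 0.66 ± 0.06 and PCGF2, the closest homologue of BMI1, by 0.44 ± 0.12, whereas C17orf96 changed by -0.29 ± 0.04 and the RYBP homologue YAF2 by -0.28 ± 0.05. In OCI-AML3, 8 of 21 PRC1 genes rose and 7 fell, and 2 of 8 PRC2 genes rose and 3 fell, beside 32.8% of all tested genes in either direction. PCGF5, PCGF2 and BCORL1 rose there by 0.51 ± 0.04, 0.37 ± 0.06 and 0.33 ± 0.08.

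The list of enzymes that remove the Polycomb marks also holds ASXL1, ASXL2 and ASXL3, cofactors of the deubiquitinase BAP1, and 8 of its 9 genes were tested. In MV411 with AC220 4 rose and 1 fell (median 0.08), with both drugs 3 rose and 3 fell (0.03), and with MI-503 2 rose and 3 fell (-0.04). Among all tested genes 37.7%, 39.3% and 29.8% rose and 37.3%, 40.1% and 30.8% fell, in the same order. KDM6B, a demethylase of lysine 27, measured 1281, 1379 and 1175 normalised reads with DMSO, 2184, 2222 and 2079.7 with AC220 and 2391, 2123 and 2186 with both. It rose by 0.76 ± 0.06 and 0.81 ± 0.06, and changed by -0.41 ± 0.06 with MI-503 in MOLM13. USP21, an H2A deubiquitinase, rose in MV411 by 0.41 ± 0.05, 0.35 ± 0.05 and 0.53 ± 0.05 with MI-503, AC220 and both. USP16, another, changed by -0.31 ± 0.06 with MI-503 in MV411 and -0.44 ± 0.03 in OCI-AML3, where the demethylase gene KDM6A changed by -0.32 ± 0.03. MYSM1 rose by 0.17 ± 0.04 in MOLM13. That rise and the one of PCGF2 there are smaller than the shift of the median gene on the deposited scale, -0.54. All these passed limma's threshold, and those in MOLM13 and OCI-AML3 are relative to the median gene.

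Likeness was measured as the root mean square difference of the 5 log2 changes. It was taken among 10683 genes with all 5 drug effects that also passed a stricter filter on their mean level in MV411 with DMSO. EZH1, the member with the highest AC220 effect, lay nearest to ELMOD3 (0.041), ZNF577 (0.056) and KIAA0195 (0.062). CBX2, with the lowest, lay nearest to the kinase gene PAK6 (0.066), the DNA polymerase alpha gene POLA2 (0.112) and the DNA repair nuclease gene EME1 (0.117). POLA2 changed by -1.83 with AC220 and -0.10 with MI-503 in MV411, beside -1.91 and -0.11 for CBX2.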

How the data were processed

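RNA-seq values of 24 libraries came in 3 tables, 1 per cell line. The deposited values are a DESeq-normalised signal per gene made by the authors (DESeq 2 and hg38, per the submitters' processing notes), and spike-in RNA was added in proportion to cell number, per the labels. The aligner, counter, annotation and strand setting are not given in the sources used here. Dividing by the step of each library gave whole reads for 100% of values (within 0.001). Although the tables are labelled as spike-in normalised, the MV411 values matched median-of-ratios factors computed from those reads. Those of MOLM13 and OCI-AML3 departed from them by up to 0.38 and 0.35 (log2) and were rescaled to them, with the deposited scale as an alternative.

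Genes with at least 10 in 3 libraries were tested on log2(value + 1) with limma 3.58.1 (R 4.3.3, variance trend, Benjamini-Hochberg over all genes, threshold 0.05), so fold changes of low genes are understated. In the deposited MOLM13 and OCI-AML3 values the prior degrees of freedom were infinite, so the spread was that of all genes together. On the recovered reads, edgeR 4.0.16 and DESeq2 1.42.0 called 8822 and 8243 genes in MV411 given MI-503, 10861 and 10402 given AC220, 11458 and 11047 given both, 8033 and 6895 in MOLM13, and 10352 and 9514 in OCI-AML3, where limma called 8734, 10806, 11450, 8018 and 10291. The scripts were tested on simulated data. Lengths were GENCODE exon unions. Replicate pairs differed by more than sampling noise (chi-square per degree of freedom 1.59 to 9.41 over 24 pairs), and 0 columns were left out.

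All 10 members were named. Of other Polycomb genes and opposing enzymes, up to 4 and up to 2 per drug comparison with the largest called changes were named, with 3 nearest profiles for the members with the highest and lowest AC220 effect, and E2F1, MKI67 and MCM2. Members and lists were chosen with earlier results of these data known. Alternatives were the pseudocount (0.5 and 8), the filter (none and 50), scaling, variance trend, edgeR, DESeq2, fits of the compared groups alone, a replicate block and leaving out each library.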

Additional observations from a re-analysis of the deposited data

Results flagged for a closer look

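Members whose effect of a drug differed between contexts, by a test of the difference itself, are listed here as values from the limma fits (log2, adjusted p below the threshold). In MV411 the effect of both drugs departed from the sum of the single effects by -0.20 for EZH1, -0.54 for EZH2, 0.34 for SUZ12, -0.19 for RBBP7, -0.22 for JARID2, 0.41 for CBX2 and -0.30 for CBX8.

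The MI-503 effect of MV411 minus that of MOLM13, after 3 and 4 days, was 0.37 for EZH1, -0.23 for EZH2, -0.41 for SUZ12 and 0.44 for BMI1, relative to the median gene. On the deposited scale, where only MV411 stays relative to the median gene, EZH2 and SUZ12 turned to 0.30 and 0.12.

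The effect of MV411 minus that of OCI-AML3, also after 3 and 4 days, was 0.71 for EZH1, -0.14 for SUZ12, -0.18 for RBBP7, 0.52 for JARID2, 0.32 for BMI1, -0.36 for CBX2 and -0.56 for CBX8. On the deposited scale, where only MV411 stays relative to the median gene, SUZ12 turned to 0.02. RBBP7 (-0.017), CBX2 (-0.20) and CBX8 (-0.40) did not pass on that scale. The SUZ12 call was lost without any 1 of 7 of the 12 libraries (limma adjusted p 0.0564 to 0.109): MV411 DMSO 1, MI-503 1 or 3, or OCI-AML3 DMSO 1 or 2 or MI-503 1 or 2.

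The effect of MOLM13 minus that of OCI-AML3, both after 4 days, was 0.34 for EZH1, 0.19 for EZH2, -0.33 for EED, 0.27 for SUZ12, -0.13 for RBBP7, 0.54 for JARID2, 0.22 for RNF2 and -0.77 for CBX8. On the deposited scale EZH1, EZH2, SUZ12 and RNF2 turned to -0.03, -0.18, -0.10 and -0.15, and JARID2 (0.16) did not pass. The RBBP7 call was lost without MOLM13 DMSO 1 or 3 or MI-503 2 or 3, or OCI-AML3 DMSO 2 or MI-503 2 (limma adjusted p 0.0512 to 0.0797), and the RNF2 call without OCI-AML3 MI-503 library 2 (limma adjusted p = 0.0549).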

How the results depend on the processing

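Of 1410 recomputed member changes under single alternatives, 1342 kept direction and side of the threshold, 36 lost and 20 gained their call, and 12 reversed. With 1 library left out, 895 of 960 kept both, 56 lost, 9 gained and 0 reversed. All 12 reversals came with the deposited scale, which moves every gene of a library alike and leaves MV411 as it is. In MOLM13 they were EZH1 (-0.25), JARID2 (-0.033) and CBX2 (-0.51). For MV411 minus MOLM13 they were EZH2 (0.30), SUZ12 (0.12), RBBP7 (0.49) and JARID2 (0.52), for MV411 minus OCI-AML3 SUZ12 (0.019), and for MOLM13 minus OCI-AML3 EZH1 (-0.035), EZH2 (-0.18), SUZ12 (-0.10) and RNF2 (-0.15). On that scale 0 members were higher and 9 lower in MOLM13, and 0 and 0 in OCI-AML3, with 1676 genes called there. MV411 minus MOLM13 then had 6 higher and 0 lower, MV411 minus OCI-AML3 0 lower (3826 genes), and MOLM13 minus OCI-AML3 0 higher and 5 lower. Fitting only the compared groups also gave 5 lower there. With equal library totals it had 3 higher, and the combination had 1 member higher than MI-503, as without the variance trend; the cause was not tested. With 1 library left out, the interaction had 1 to 2 members higher and 2 to 5 lower.

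Correlations of same-numbered libraries, as deviations from their group means, were low and ran from -0.08 to 0.12. Each combination library nevertheless correlated best with the AC220 library of its own number (0.07, 0.03 and 0.12). Whether replicate numbers mark cultures handled together is not given. A replicate block changed the call of EZH2 between AC220 and MI-503 (limma adjusted p = 0.0546) and of SUZ12 for MV411 minus OCI-AML3 (limma adjusted p = 0.0642), and no other member's.

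With 3 libraries a group, small changes are limited by the spread between libraries. OCI-AML3 was sequenced deepest, and its deposited values had the widest spread.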
